A study of Mus musculus with 16 samples.

Results

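The genes described here were *Sh2d1b1*, *Gabrb2*, *Glra3*, *Gm2381* and *Gm44997*, 5 of the 49585 genes in the count tables, chosen by their own counts because AMPK-KO libraries expressed them while WT libraries held few or no reads. Their RNA was counted in 16 sequencing libraries of C2C12 cells, mouse myoblasts that form multinucleate myotubes in low serum. The first table held WT and AMPK-KO cells at differentiation day 0 (d0, the myoblast stage) and day 8 (d8, in low equine serum), with 2 libraries in each of 4 groups. AMPK-KO cells lacked both catalytic subunits of AMP-activated protein kinase, AMPKα1 (*Prkaa1*) and AMPKα2 (*Prkaa2*), after CRISPR/Cas9 editing, puromycin selection and the picking of clones. The study describes independent AMPK-KO lines, the labels do not say which line each AMPK-KO library came from, and the WT cells are not described as a clone. The second table held cells labelled AMPK-null only, all undifferentiated at d0, with a FLAG-BirA tag and an EGFP cassette knocked in at the endogenous *Tet2* gene. The tagged TET2 was either unchanged (TET2-WT) or carried a glutamate at serine 97 that mimics its phosphorylation by AMPK (TET2-S97E). Each TET2 genotype was represented by 2 clones with 2 libraries per clone, so a genotype rests on 2 clones, and no library of this table was labelled as coming from cells with AMPK. Library totals ran from 17883417 to 24663079 counts in the first table and from 19801909 to 37790358 in the second. For the WT libraries and for libraries of 1 TET2 clone nothing states that replicates were separate cultures, so p-values measure the spread between these libraries, which may be technical.

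*Sh2d1b1* encodes EAT-2, a small SH2-domain adaptor of the SAP family, which binds the tails of SLAM receptors in natural killer and other blood cells. *Gabrb2* and *Glra3* encode subunits of pentameric Cys-loop receptors, the chloride channels that open on binding GABA or glycine and inhibit neurons. A GABA-A receptor is usually built from α, β and γ subunits, of which *Gabrb2* is the β2 chain, and *Glra3* is the α3 chain of the glycine receptor, which pairs with the β chain encoded by *Glrb*. *Gm2381* and *Gm44997* are predicted genes for which no function is stated here.

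In GENCODE M21 on GRCm38, *Sh2d1b1* (ENSMUSG00000102418) lies at chr1:170277320-170286769 on the plus strand, with 4 exons and 2544 exon bases. *Gabrb2* (ENSMUSG00000007653) lies at chr11:42419757-42629028 on the plus strand, with 11 exons and 6360 exon bases. *Glra3* (ENSMUSG00000038257) lies at chr8:55940460-56130070 on the plus strand, with 11 exons and 9208 exon bases. *Gm2381* (ENSMUSG00000092225), annotated as protein coding in GENCODE and as a transcribed pseudogene in RefSeq, lies at chr7:42816829-42867234 on the minus strand, with 4 exons and 4073 exon bases. *Gm44997* (ENSMUSG00000108446), a processed transcript with no coding sequence, lies at chr7:42561414-42578235 on the minus strand, with 5 exons and 3917 exon bases. The starts of the last pair are 289 kb apart, and the other members lie on separate chromosomes. No exon of a member overlapped an exon of another gene. Stretches of 100 bases shared with transcripts of other genes made up 7.28% of *Sh2d1b1*, all of them shared with its paralog *Sh2d1b2*, 1.11% of *Gm2381* and 1.36% of *Gm44997*, while *Gabrb2* and *Glra3* shared none. How the counting treated reads that align to several genes, and whether it used strand, is not given in the sources used here, so counts of *Sh2d1b1*, *Gm2381* and *Gm44997* carry that uncertainty.

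RefSeq (GRCm38.p6) promoter windows of 300 bases, which begin 250 bases before a transcription start, were found for *Sh2d1b1*, *Glra3* and *Gabrb2*, and are shown because the study concerns an enzyme that acts on methylated cytosines in CG pairs. The windows are chr1:170277068-170277367 for *Sh2d1b1*, chr8:55940168-55940467 for *Glra3* and chr11:42420190-42420489 for the first of 3 starts of *Gabrb2*, all on the plus strand, with each CG in capitals.
Sh2d1b1: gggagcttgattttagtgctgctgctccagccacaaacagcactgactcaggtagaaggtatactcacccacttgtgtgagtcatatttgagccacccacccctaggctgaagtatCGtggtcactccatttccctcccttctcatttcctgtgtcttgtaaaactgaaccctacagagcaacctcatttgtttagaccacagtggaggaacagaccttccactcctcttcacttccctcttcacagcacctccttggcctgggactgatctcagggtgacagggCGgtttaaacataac
Glra3: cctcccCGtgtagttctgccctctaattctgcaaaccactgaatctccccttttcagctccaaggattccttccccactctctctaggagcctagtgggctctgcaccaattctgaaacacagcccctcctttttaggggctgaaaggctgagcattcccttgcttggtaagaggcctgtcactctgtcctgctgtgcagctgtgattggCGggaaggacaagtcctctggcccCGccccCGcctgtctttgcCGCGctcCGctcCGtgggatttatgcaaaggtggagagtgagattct
Gabrb2: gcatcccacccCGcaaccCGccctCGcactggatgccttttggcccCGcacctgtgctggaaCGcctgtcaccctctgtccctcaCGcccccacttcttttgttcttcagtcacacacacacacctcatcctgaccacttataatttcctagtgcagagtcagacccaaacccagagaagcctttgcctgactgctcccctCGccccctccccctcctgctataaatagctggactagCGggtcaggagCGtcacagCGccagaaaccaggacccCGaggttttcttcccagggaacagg
The *Sh2d1b1* window held 2 CG pairs, the *Glra3* window 8 and the *Gabrb2* window 11, and the other *Gabrb2* windows held 9 each. Over 32851 such windows of 27025 genes the median was 7, and 14.1% of windows held fewer CG pairs than that of *Sh2d1b1*. The E-box motif CANNTG, which reads alike on both strands, occurred 2 times in the *Sh2d1b1* window and 1 time each in those printed for *Glra3* and *Gabrb2*, against at least 1 match in 72.3% of all windows. The *Sh2d1b1* window was thus poor in CG pairs and those of the receptor genes lay above the median. These letters say nothing about methylation, which was not analysed here.

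*Prkaa2*, the gene of AMPKα2, was checked against the labels first. It had 35 and 33 counts in the WT d0 libraries against 4 and 9 in AMPK-KO d0, and 113 and 216 in WT d8 against 31 and 17 in AMPK-KO d8. *Prkaa1*, the gene of AMPKα1, had 158.5 and 158.6 CPM (reads scaled to the library total with edgeR's TMM factors) in WT d0, 79.7 and 78.0 in AMPK-KO d0, 126.2 and 124.9 in WT d8, and 83.3 and 82.5 in AMPK-KO d8. Both edited genes were lower in each AMPK-KO library than in the WT libraries of the same day, and neither was at 0. In the second table, normalized separately, *Prkaa2* ran from 0.454 CPM in a TET2-S97E clone 1 library to 1.64 in TET2-WT clone 2 replicate 2 and 1.73 in TET2-S97E clone 2 replicate 2, beside 1.69 and 1.79 CPM in the WT d0 libraries of the first. *Prkaa1* ran from 73.4 to 103.9 CPM there. The level of *Prkaa2* therefore did not set all libraries labelled AMPK-null apart from WT. *Tet2*, the tagged gene, had 34.3 and 22.5 CPM in TET2-WT clone 1, 58.4 and 56.4 in TET2-WT clone 2, 12.9 and 22.0 in TET2-S97E clone 1 and 7.88 and 22.1 in TET2-S97E clone 2. It was lower in each TET2-S97E library than in each TET2-WT library, as were 7.99% of the genes tested in this table. The groups came close, at 22.5 CPM in the lowest TET2-WT library and 22.1 in the highest TET2-S97E library. Neither this difference in the RNA of the tagged gene nor its part in other differences between the genotypes was tested.

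*Sh2d1b1* was the most abundant member. It had 10 counts in each WT d0 library and 1 and 0 in the WT d8 libraries, against 415 and 962 in AMPK-KO d0 and 440 and 327 in AMPK-KO d8. On the CPM scale this was 0.512 ± 0.0423 in WT d0 and 33.3 ± 16.4 in AMPK-KO d0 (SD, n = 2 each), and 16.9 ± 1.46 in AMPK-KO d8 (SD, n = 2). The ratio of the means was 65.1 at d0 and at least 111 at d8, where the WT group was set to the floor of 3 counts per library. The AMPK-KO d0 libraries differed from each other by more than those of d8, and without AMPK-KO d0 replicate 2 the d0 ratio was 42.4.

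*Gabrb2* had 0 and 2 counts in WT d0, 92 and 115 in AMPK-KO d0, 9 and 4 in WT d8, and 435 and 116 in AMPK-KO d8. The AMPK-KO mean was at least 33.2-fold higher at d0 and 34.2-fold higher at d8. The d8 mean of 11.7 ± 8.56 CPM (SD, n = 2) rested on 1 library, since replicate 1 stood at 17.7 CPM and replicate 2 at 5.64. Without replicate 1 the d8 ratio was 16.5, and without replicate 2 it was 51.9. Replicate 2 was at the level of the AMPK-KO d0 libraries, 4.82 and 5.38 CPM.

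*Glra3* was near the limit of what these depths could show. It had 2 and 1 counts in WT d0 and 0 and 0 in WT d8, against 16 and 22 in AMPK-KO d0 and 34 and 11 in AMPK-KO d8. Its AMPK-KO level was at least 6.07-fold above WT at d0 and at least 6.28-fold at d8, a limit that became 3.49 without AMPK-KO d8 replicate 1.

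*Gm2381* had 1 and 0 counts in WT d0, 168 and 213 in AMPK-KO d0, 2 and 4 in WT d8, and 215 and 126 in AMPK-KO d8. Its AMPK-KO level was at least 61.0-fold above WT at d0 and 50.0-fold at d8. It varied least of the 5 among the 4 AMPK-KO libraries, where it ran from 6.12 to 9.96 CPM, a ratio of 1.63.

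*Gm44997* had 0 counts in both WT d0 libraries and 10 and 12 in AMPK-KO d0, then 5 and 6 in WT d8 and 33 and 25 in AMPK-KO d8. Its AMPK-KO level was at least 3.53-fold above WT at d0 and 4.60-fold at d8, and in both genotypes the d8 libraries lay above those of d0. At d8 its ratio between genotypes was the smallest of the 5.

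In all 10 pairings of member and day the AMPK-KO libraries lay above the WT libraries without overlap, as did those of 23.7% of all 14329 genes tested at d0 and 30.0% at d8. Of the genes tested, 3.52% were called between AMPK-KO and WT at d0 and 5.35% at d8 (edgeR's quasi-likelihood test, Benjamini-Hochberg adjusted p under 0.05). The members were selected on this contrast, so their separation is a description and was not tested. In bulk RNA a gain in the number of expressing cells and a gain of RNA per cell cannot be told apart. A strict form of the pattern, with at most 3 counts in each WT library and at least 10 in each AMPK-KO library, held for 8 genes, and *Glra3* was the only member among them. The other members missed it because a WT library held more than 3 counts, the highest being 10 for *Sh2d1b1*, 9 for *Gabrb2*, 4 for *Gm2381* and 6 for *Gm44997*. The 5 genes of this strict pattern with the highest mean CPM in AMPK-KO cells were *Magea3*, *Cldn34b1*, *A630001G21Rik*, *Dhx58os* and *Glra3*, and *Sh2d1b2* was among the other 3. The mirror pattern, present in WT and at most 3 counts in each AMPK-KO library, held for 140 genes.

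**Figure D1:**
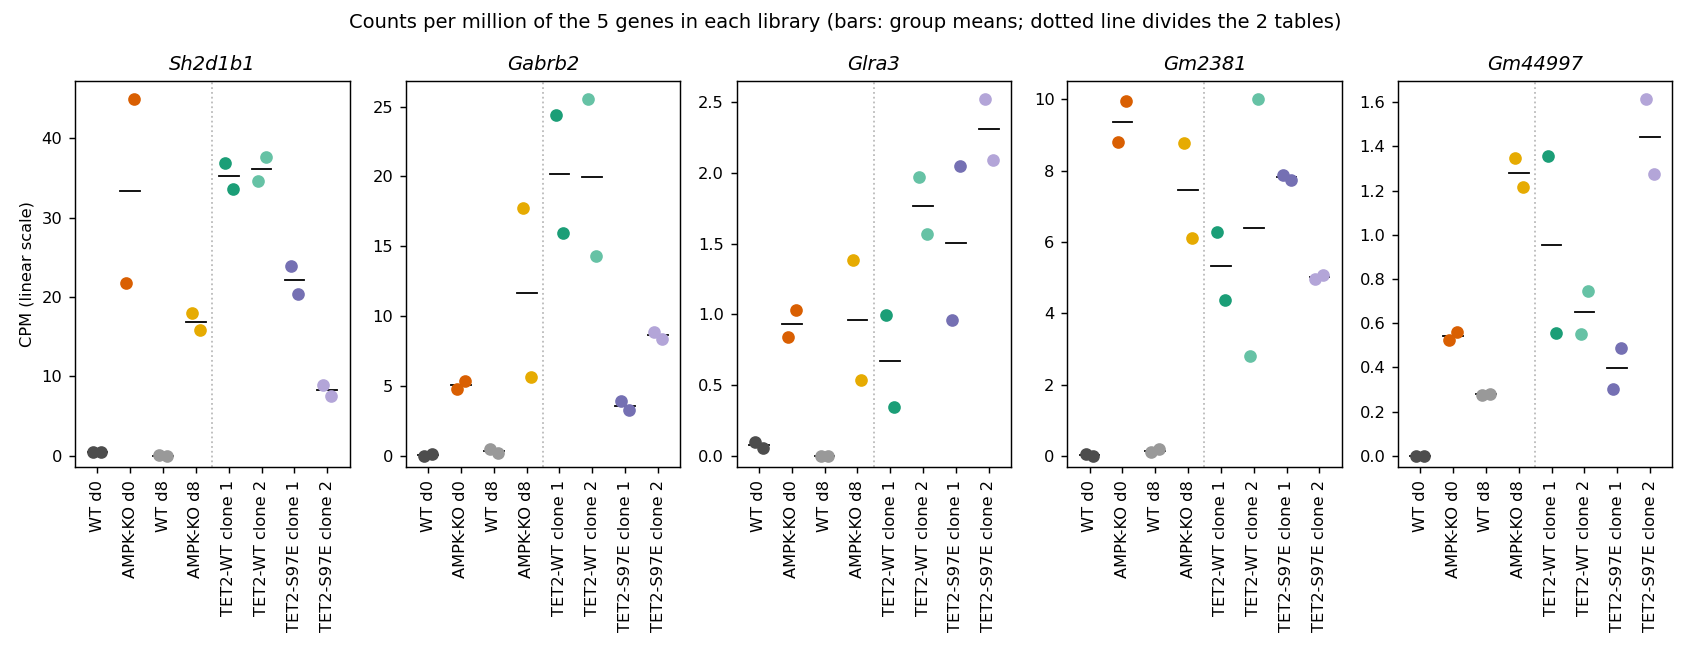
CPM (linear axis, a separate scale for each gene) of the 5 genes in every library, with points for libraries and bars for group means; the dotted line divides the 2 tables, which were normalized separately. The WT libraries lie at or near 0, for example at most 0.542 CPM for *Sh2d1b1*, while each of the 4 AMPK-KO libraries of the same table lies above all 4 WT libraries for every gene.

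Per length, on the TPM scale (counts divided by exon length and scaled to the library), *Sh2d1b1* ranked first of the 5 in all 12 AMPK-null libraries, with 45.5 ± 23.9 TPM in AMPK-KO d0 and 23.7 ± 2.38 in AMPK-KO d8 (SD, n = 2 each). *Gm2381* followed with 7.93 ± 0.980 TPM at d0, ahead of *Gabrb2* with 2.76 ± 0.314 (SD, n = 2 each). At d8 this order of *Gm2381* and *Gabrb2* was not resolved, with 6.52 ± 1.73 and 6.58 ± 4.89 TPM (SD, n = 2 each), and among the TET2 libraries either could be the higher. *Gm44997* at 0.477 ± 0.0405 TPM and *Glra3* at 0.350 ± 0.0630 TPM in AMPK-KO d0 (SD, n = 2 each) came last, in changing order. Set against the genes tested, the median *Sh2d1b1* level over the 12 libraries lay above 61.8% of them, that of *Gm2381* above 27.0%, *Gabrb2* 23.2%, *Gm44997* 8.37% and *Glra3* 5.82%. The share ran from 32.5% to 78.3% for *Sh2d1b1* and from 12.1% to 41.7% for *Gabrb2*, so their ranges met, while *Glra3* reached at most 9.48% and *Gm44997* 14.1%.

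The change from d0 to d8 within AMPK-KO cells asked whether the gained genes moved when the knockout cells were put into differentiation medium. None of the 5 passed the test, against 9.76% of the 14329 genes tested, and DESeq2, which gave an adjusted p for 3 of them, called 0 as well. At an unadjusted p under 0.05 there were 2, *Sh2d1b1* and *Gm44997*. Here and below, shares of all genes called are those at edgeR's adjusted p. Counts at an unadjusted p have no share over all genes beside them, so they do not show whether the genes counted stand out. Counts by DESeq2 are to be read beside its own totals, which exceed those of edgeR. Within AMPK-KO cells, DESeq2 called 2544 of 14329 genes between the days. Between AMPK-KO and WT it called 1378 of 14329 on d0 and 1656 on d8. For TET2-S97E against TET2-WT it called 1825 of 13433. Between clones it called 897 for TET2-WT and 1364 for TET2-S97E. *Sh2d1b1* had a log2 fold change of -0.98 with an SE of 0.398 (adjusted p = 0.160), and its d8 libraries lay below both d0 libraries. *Gm44997* had 1.23 with an SE of 0.501 (adjusted p = 0.173), its d8 libraries above those of d0. *Gabrb2* had 1.20 with an SE of 0.677 (adjusted p = 0.289), a value that became 0.15 without AMPK-KO d8 replicate 1. *Gm2381* stood at -0.33 (SE 0.40) and *Glra3* at 0.05 (SE 0.635), with adjusted p of 0.622 and 0.974. For *Sh2d1b1* the value rested on AMPK-KO d0 replicate 2, without which it was -0.35. The AMPK-KO d8 libraries also differed in skeletal muscle markers, of which 15 of 18 reached 10 counts in replicate 1 and 17 in replicate 2. Their summed level was 4619 CPM in replicate 1 and 17186 CPM in replicate 2, whose most abundant gene was *Acta1*, skeletal actin. The part of this difference in the values above was not tested.

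In the second table every member was counted in all 8 AMPK-null libraries. The lowest count was 178 for *Sh2d1b1*, 78 for *Gabrb2*, 13 for *Glra3*, 61 for *Gm2381* and 6 for *Gm44997*. The comparison of TET2-S97E with TET2-WT asked whether the phospho-mimic changed the gained genes. It called 1 of the 5 members, *Gabrb2*, against 6.98% of the 13433 genes tested.

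*Gabrb2* had 24.4 and 15.9 CPM in TET2-WT clone 1 and 25.6 and 14.3 in clone 2, against 3.93 and 3.25 in TET2-S97E clone 1 and 8.83 and 8.40 in clone 2. The TET2-WT mean was 20.1 ± 5.75 CPM and the TET2-S97E mean 6.11 ± 2.92 CPM (SD, n = 4 libraries from 2 clones each), and the groups did not overlap. All 4 TET2-S97E libraries lay below all 4 TET2-WT libraries for 7.99% of the 13433 genes tested, and for 2 of the 5 members, *Gabrb2* and *Sh2d1b1*. *Gabrb2* fell by 1.71 on the log2 scale (SE 0.363, edgeR's quasi-likelihood test, adjusted p = 0.0250), a fold of 3.28. The size rested on the clone, with a log2 fold change of -1.24 without TET2-S97E clone 1 and -2.49 without TET2-S97E clone 2. The call depended on treating libraries of a clone as separate. With counts summed per clone the adjusted p was 0.344, in a fit that called 0 of all 15126 genes tested. That fit therefore cannot show whether *Gabrb2* differs from other called genes. With clone as a random effect in limma-voom the adjusted p was 0.0710, in a fit that called 166 of 13433 genes. The call was also lost without TET2-WT clone 1 replicate 1 (adjusted p = 0.0745) or replicate 2 (0.0522). The same held without TET2-WT clone 2 replicate 1 (0.0758) or TET2-S97E clone 1 replicate 1 (0.0630). Log2 fold changes were -1.81 to -1.56 in these fits without a library.

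*Sh2d1b1* had 36.9 and 33.6 CPM in TET2-WT clone 1 and 34.7 and 37.7 in clone 2, then 23.9 and 20.3 in TET2-S97E clone 1 and 8.99 and 7.51 in clone 2. TET2-WT clones were at one level, 35.7 ± 1.92 CPM (SD, n = 4), and all 4 TET2-S97E libraries lay below them, at 15.2 ± 8.15 CPM (SD, n = 4). The fitted log2 fold change was -1.24 with an SE of 0.343 and missed the threshold, with an adjusted p of 0.0628 in edgeR's quasi-likelihood test and 0.00550 in DESeq2. Without TET2-S97E clone 1 replicate 1 it was -1.54 with an adjusted p of 0.0428. With counts summed per clone the adjusted p was 0.453, in the fit that called 0 of all 15126 genes. With clone as a random effect in limma-voom it was 0.0672. The size rested on the clone, at -2.13 without TET2-S97E clone 1 (adjusted p = 0.00179) and -0.70 without TET2-S97E clone 2 (0.0334).

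The other members overlapped between the TET2 genotypes. *Glra3* had 0.343 to 1.97 CPM in TET2-WT and 0.958 to 2.52 in TET2-S97E, with a log2 fold change of 0.66 (SE 0.517, edgeR adjusted p = 0.496). *Gm2381* had 2.79 to 10.0 CPM in TET2-WT and 4.95 to 7.87 in TET2-S97E, with a log2 fold change of 0.13 (SE 0.376, adjusted p = 0.886). *Gm44997* had 0.550 to 1.36 CPM in TET2-WT and 0.303 to 1.62 in TET2-S97E, with a log2 fold change of 0.20 (SE 0.559, adjusted p = 0.873). *Glra3* and *Gm44997* had 6 to 64 counts per library in this table, and their SEs were the largest of the 5.

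Skeletal muscle markers differed as well. Of 18 markers, 16 were tested and 10 were called higher in TET2-S97E when libraries of a clone were treated as separate. Of all 13433 genes tested, 6.98% were called in either direction. Among the 10 were *Pax7*, the satellite cell factor, *Mymk*, the fusion protein Myomaker, and *Actc1*, cardiac actin. The summed level of the 18 markers was 1349, 1661, 1343 and 2033 CPM in the TET2-WT libraries. It was 11965 and 5932 in TET2-S97E clone 1, and 3739 and 1631 in TET2-S97E clone 2, the last within the TET2-WT range. In fits chosen after seeing the data, 0 markers were called with counts summed per clone and 1 with clone as a random effect in limma-voom. There were 0 without TET2-WT clone 1, 9 without TET2-WT clone 2, 3 without TET2-S97E clone 1 and 14 without TET2-S97E clone 2. Over all genes these fits called, in the same order, 0 of 15126, 166 of 13433, 183 of 14224, 625 of 14235, 800 of 14206 and 1186 of 14091. Of the TET2-S97E clones, clone 1 thus had the higher summed level and the lower *Gabrb2*, and clone 2 the lower *Sh2d1b1*. Single markers differed in this, since *Pax7* had 42 and 51 counts in clone 1 and 50 and 323 in clone 2, and *Actc1* 14 and 47 against 51 and 65. Whether the muscle programme had a part in the member levels was not tested.

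The comparison of clones within a genotype asked how far the gained genes varied between clones of 1 genotype. Between TET2-WT clones 0 of the 5 members were called, by edgeR and by DESeq2, against 0.901% of the 13433 genes tested, and 1, *Glra3*, had an unadjusted p under 0.05. *Glra3* had 0.995 and 0.343 CPM in clone 1 and 1.97 and 1.57 in clone 2, a log2 fold change of 1.45 (SE 0.589, edgeR adjusted p = 0.213) that ran from 0.82 without TET2-WT clone 1 replicate 2 to 2.34 without TET2-WT clone 1 replicate 1. *Sh2d1b1* and *Gabrb2* stood at 0.04 (SE 0.177) and -0.02 (SE 0.305) on the log2 scale, both close to 0 and with the smallest SEs of the 5. *Gm2381* ran from 2.79 to 10.0 CPM in the libraries of TET2-WT clone 2.

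Between TET2-S97E clones 1 of the 5 was called, *Sh2d1b1*, against 6.39% of the genes tested. It was 22.1 ± 2.49 CPM in clone 1 and 8.25 ± 1.04 in clone 2 (SD, n = 2 each), a fall by 1.42 on the log2 scale (SE 0.185, edgeR's quasi-likelihood test, adjusted p = 0.00306), and the call held with each library left out in turn. *Gabrb2* went the other way, from 3.59 ± 0.481 CPM in clone 1 to 8.62 ± 0.309 in clone 2 (SD, n = 2 each), with a log2 fold change of 1.27 (SE 0.328) and an edgeR adjusted p of 0.0553. That p was 0.0268 without TET2-WT clone 2 replicate 1, 0.0231 without TET2-WT clone 2 replicate 2, and 0.00723 in DESeq2, and it reached 0.218 without TET2-S97E clone 1 replicate 2. Of 15 alternatives, 10 left *Gabrb2* uncalled. *Gm44997* had 0.395 ± 0.131 CPM in clone 1 and 1.44 ± 0.241 in clone 2 (SD, n = 2 each), a log2 fold change of 1.82 (SE 0.580, adjusted p = 0.108). *Gm2381* and *Glra3* stood at -0.64 (SE 0.492) and 0.59 (SE 0.553). The members therefore did not move as 1 group between these clones.

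**Figure D2:**
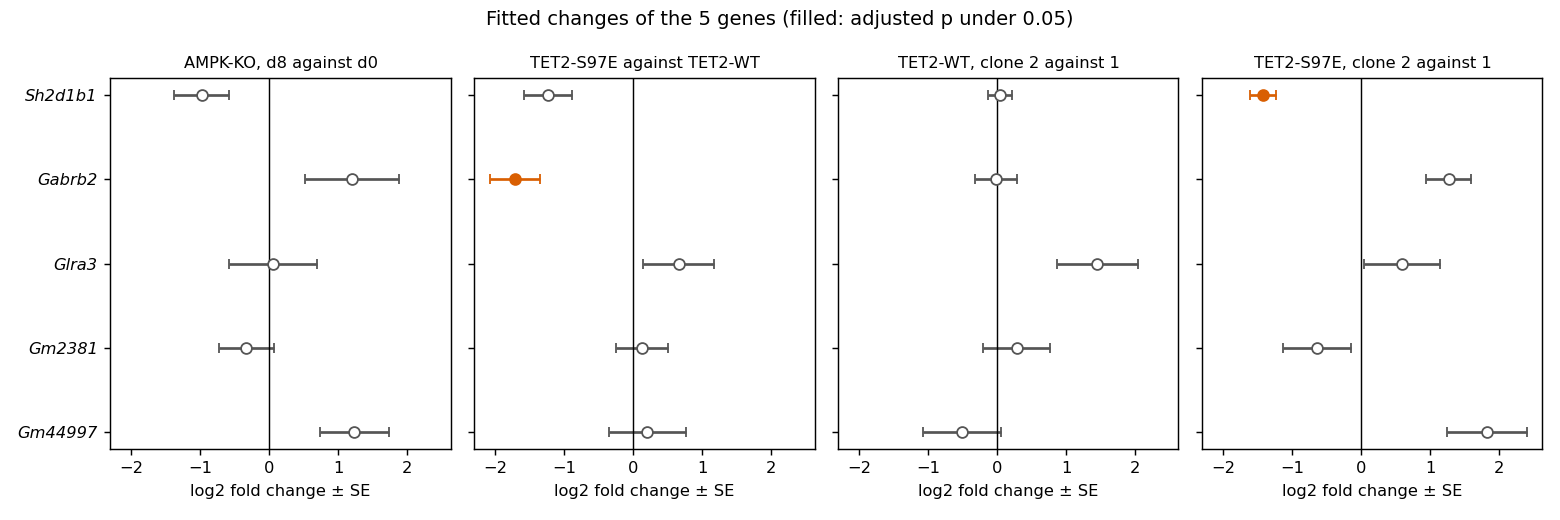
Fitted log2 fold changes with SE bars of the 5 genes in the 4 comparisons that did not choose them, filled where the adjusted p was under 0.05. *Gabrb2* in TET2-S97E against TET2-WT (-1.71) and *Sh2d1b1* between the TET2-S97E clones (-1.42) are the filled points.

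The receptors and partners that the members work with were then examined in AMPK-KO against WT cells. Of 16 other GABA-A receptor subunit genes considered, 1 had enough reads to test, *Gabre*, the ε chain, and it was not called at either day. *Gabre* had 62 and 19 counts in WT d0 and 119 and 117 in AMPK-KO d0, with a log2 fold change of 1.53 (edgeR adjusted p = 0.138), and at d8 it stood at 0.84 (adjusted p = 0.327). The d0 value depended on WT d0 replicate 1, without which it was 2.49 (adjusted p = 0.0406), and without WT d0 replicate 2 it was 0.97 (0.187). DESeq2 called it at d0 (adjusted p = 0.0407).

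Of 23 glycine receptor and related Cys-loop genes listed, 22 were found and 6 were tested. Among these edgeR called 0 at either day, against 3.52% of all genes tested at d0 and 5.35% at d8. At an unadjusted p under 0.05 there were 2 at d0 and 0 at d8, and DESeq2 called 2 at d0, *Chrnd* and *Chrng*, and 0 at d8. With replicate number as a block in its model, edgeR called 1 at d0 and 0 at d8. *Glrb*, the β chain that pairs with glycine receptor α chains, had a log2 fold change of 0.20 at d0 and -0.54 at d8 (edgeR adjusted p = 0.825 and 0.446). *Chrna1*, the muscle acetylcholine receptor α chain and the most abundant of the list, had -0.90 and -0.49 (adjusted p = 0.259 and 0.512). The median log2 fold change of the list was -0.54 at d0 and -0.37 at d8, beside -0.0010 and 0.039 over all genes tested. Of 31 genes for the scaffold, transmitter and chloride handling of inhibitory synapses, 29 were found and 19 tested. Among these edgeR called 0 at d0 and 1 at d8, against 3.52% and 5.35% of all genes tested. Their median was 0.04 and -0.12. At d0 there were 5 at an unadjusted p under 0.05, and DESeq2 called 3. With the replicate block edgeR called 0 of these genes at d0 and 4 at d8. *Gabarap*, the most abundant, had -0.13 at d0 (adjusted p = 0.784). *Plcl2*, a phospholipase C-like protein, was higher at d8, from 23.3 ± 3.41 to 70.6 ± 5.81 CPM (SD, n = 2 each). Its log2 fold change was 1.60 (SE 0.227, edgeR adjusted p = 0.0140). Without WT d8 replicate 1 the change was 1.47 and without replicate 2 it was 1.77. The call was lost in these fits, which leave 1 library in a group and called fewer of all genes too.

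Of 23 SLAM receptor, SAP adaptor and signalling genes listed, 22 were found and 11 tested. Among these edgeR called 1 at each day, against 3.52% of all genes tested at d0 and 5.35% at d8. Their median was -0.40 at d0 and -0.45 at d8. At an unadjusted p under 0.05 there were 6 at d0 and 7 at d8. DESeq2 called 2 at d0, *Plcg2* and *Fyn*, and 6 at d8, which were *Sh2d1b2*, *Vav2*, *Ptpn11*, *Ptpn6*, *Plcg2* and *Fyn*. With replicate number as a block, edgeR called 2 at d0 and 4 at d8. The gene called by edgeR without that block was *Fyn*, the Src-family kinase that works with SAP adaptors, and it fell. It had 157.7 ± 3.65 CPM in WT d0 and 70.9 ± 14.1 in AMPK-KO d0, then 232.0 ± 9.56 in WT d8 and 92.7 ± 9.63 in AMPK-KO d8 (SD, n = 2 each). The log2 fold changes were -1.15 (SE 0.180, edgeR adjusted p = 0.0215) and -1.32 (SE 0.181, adjusted p = 0.0128). Without single libraries the change ran from -1.38 to -0.99 at d0 and from -1.47 to -1.20 at d8. The d0 call was lost without any 1 library of WT d0, AMPK-KO d0 or WT d8. The d8 call was lost without either WT d8 library or AMPK-KO d8 replicate 1. Fits that leave 1 library in a group compared called fewer of all genes too. Of the SLAM receptors, *Slamf1*, *Ly9*, *Cd84*, *Slamf6* and *Slamf7* had 0 counts in all 16 libraries, *Cd48* at most 1, *Cd244a* at most 2 and *Slamf8* at most 3. *Slamf9* was the only one tested, with 6 and 12 counts in WT d0, 49 and 6 in AMPK-KO d0, 12 and 15 in WT d8 and 11 and 17 in AMPK-KO d8. The fit gave 1.59 on the log2 scale at d0 (edgeR adjusted p = 0.419) and -0.11 at d8 (0.963), and the groups overlapped at both days.

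In TET2-S97E against TET2-WT the same lists gave other calls. *Chrng*, the fetal acetylcholine receptor γ chain made by differentiating muscle, was higher by 5.03 on the log2 scale (edgeR adjusted p = 0.0282). Its change was 3.83 without TET2-S97E clone 1 replicate 1, 2.96 without TET2-S97E clone 1 and 6.42 without TET2-WT clone 2. *Slc12a2*, the chloride importer NKCC1, was higher by 0.88 (adjusted p = 0.0173), and *Trak2* and *Trak1*, adaptors of mitochondrial transport, by 0.78 and 0.51 (adjusted p = 0.0260 and 0.0326). The counts called by edgeR were 0 of 1 GABA-A, 1 of 6 Cys-loop, 3 of 17 synapse and 0 of 10 SLAM and SAP genes tested, against 6.98% of all genes tested. At an unadjusted p under 0.05 there were 0, 3, 4 and 2 in these lists, and DESeq2 called 0, 2, 4 and 2. The calls of *Chrng*, *Slc12a2*, *Trak2* and *Trak1* were lost in 10, 8, 10 and 13 of 21 other fits. All 4 calls were lost in both fits that take clone into account. For counts summed per clone, a fit that called 0 of all 15126 genes, the adjusted p were 0.340, 0.332, 0.388 and 0.480. With clone as a random effect in limma-voom, which called 166 of 13433 genes, they were 0.127, 0.0758, 0.0756 and 0.121.

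Markers of the cell types in which the members are usually found were examined over all libraries. Of 20 natural killer and T cell markers, 3 were tested. Between AMPK-KO and WT 0 of these were called at either day by edgeR or DESeq2. By edgeR, 3.52% of all genes tested were called at d0 and 5.35% at d8. At an unadjusted p under 0.05 there were 0 markers at d0 and 1 at d8. The defining genes *Cd2*, *Klrb1c*, *Klrk1*, *Ncr1*, *Nkg7*, *Gzma*, *Tbx21* and *Tyrobp* had 0 counts in every library, *Ptprc* at most 1, and the summed level of the list was 1.01 to 7.88 CPM, led by *Il2rb*, *Lck* or *Zap70*. Of 20 neuron markers, 10 were tested, and edgeR called none higher. It called 4 lower at d0 and 5 at d8, among them *Tubb3* and *Map2*, against 3.52% and 5.35% of all genes tested. At an unadjusted p under 0.05 there were 7 and 6, and DESeq2 called 7 and 5. The summed level of the neuron markers was 456.2 and 1156 CPM in WT d0 against 49.1 and 88.8 in AMPK-KO d0, and 289.8 and 267.8 in WT d8 against 49.8 and 76.4 in AMPK-KO d8. The called neuron markers were thus lower in the cells in which *Gabrb2* and *Glra3* were higher. Skeletal muscle markers were present in all libraries with *Des*, desmin, at 692.9 CPM or more in the libraries it led. Of 18, edgeR called 6 lower in AMPK-KO d0 and 1 at d8, *Pax7* at both, against 3.52% and 5.35% of all genes tested. At an unadjusted p under 0.05 there were 11 and 6, and DESeq2 called 9 and 4.

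Genes around the members were examined next. Within 500 kb of the members' starts 69 other genes considered had their own start, 17 of these reached 10 counts in a library of the first table, and 15 were tested. Of the 15, edgeR called 3 higher in AMPK-KO at d0 and 2 at d8, and none lower. This is 20.0% and 13.3% of those tested against 3.52% and 5.35% of all genes. The median log2 fold change of the 15 was 0.17 at d0 and 0.46 at d8. The neighbours called by edgeR were *Zfp936* and *Gm17067* at both days and *Zfp977* at d0, and DESeq2 called each of them at both days. They lay near *Gm2381* and *Gm44997*, while edgeR called 0 of 6 tested neighbours of *Sh2d1b1* and 0 of 1 of *Glra3* at either day. At an unadjusted p under 0.05, for which no share over all genes is given, there were 4 near *Sh2d1b1* at d0 and 2 at d8, and 0 and 1 near *Glra3*. Near *Sh2d1b1*, DESeq2 called *Ddr2*, which was higher, and *Olfml2b*, which was lower, at d0. At d8 it called *Ddr2* and *Sh2d1b2*, both higher, and it called 0 near *Glra3*. The calls were sensitive to single libraries and were lost in some fits without 1. Leaving out a library of the groups compared leaves 1 in its group. Such fits called fewer of all genes as well, so the losses do not single out these neighbours. Without single libraries the d0 log2 fold changes ran from 3.16 to 4.36 for *Zfp936*, 3.47 to 5.48 for *Gm17067* and 2.54 to 3.75 for *Zfp977*.

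The gene whose start lies closest upstream of *Gabrb2*, at 98.7 kb, is *Gabra6*, which codes for a GABA-A receptor α chain and had 0 counts in all 16 libraries. The gene closest downstream, *Gm25543*, had at most 1 count.

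On chromosome 7, *Gm2381* and *Gm44997* lie among genes of zinc finger proteins. *Gm17067* starts 140.2 kb downstream of *Gm2381* and 148.8 kb upstream of *Gm44997*, between them. It had 3 and 11 counts in WT d0, 115 and 158 in AMPK-KO d0, 0 and 1 in WT d8, and 95 and 85 in AMPK-KO d8, a ratio of 18.1 at d0 (edgeR adjusted p = 0.0226) and at least 26.2-fold higher at d8 (adjusted p = 0.0111). *Zfp936*, 247.0 kb upstream of *Gm2381*, had 8 and 3 counts in WT d0, 76 and 64 in AMPK-KO d0, 11 and 13 in WT d8, and 70 and 72 in AMPK-KO d8, with log2 fold changes of 3.62 (SE 0.513, adjusted p = 0.0165) and 2.37 (SE 0.471, adjusted p = 0.0363). *Zfp977*, 14.3 kb upstream of *Gm44997*, had 8 and 3 counts in WT d0 and 53 and 38 in AMPK-KO d0 (log2 fold change 3.01, SE 0.611, edgeR adjusted p = 0.0473), then 11 and 12 in WT d8 and 96 and 42 in AMPK-KO d8 (2.34, SE 0.568, edgeR adjusted p = 0.0647). At d8 *Zfp977* was called by DESeq2 (adjusted p = 0.0231), and by edgeR with no filter on low counts (0.00338) or with replicate number as a block (0.0333). Without WT d0 replicate 1 the d0 values of *Zfp936* and *Zfp977* were 4.36 and 3.75, and without WT d0 replicate 2 they were 3.16 and 2.54. The d0 call of *Zfp936* was lost without either AMPK-KO d0 library. Its d8 call was lost without any 1 library of AMPK-KO d0, WT d8 or AMPK-KO d8. The d0 call of *Gm17067* was lost without WT d0 replicate 1 or either AMPK-KO d0 library. Its d8 call was lost without either WT d8 library. Its d0 log2 fold change ran from 3.47 without WT d0 replicate 1 to 5.48 without WT d0 replicate 2, around the fitted 4.18. The d0 call of *Zfp977* was lost without any 1 library but AMPK-KO d8 replicate 2. Fits that leave 1 library in a group compared called fewer of all genes too. Other zinc finger genes of the same stretch lay close to no change. *Zfp975* had log2 fold changes of 0.04 and 0.43 (adjusted p = 0.964 and 0.457), *Zfp976* 0.36 and 0.46 (0.596 and 0.464), and *Zfp141* 0.11 and 0.24 (0.842 and 0.601). Higher and level genes were therefore interspersed. *EU599041*, a long noncoding RNA gene 346.8 kb upstream of *Gm2381*, had the largest fitted d0 change of the tested neighbours, with 0 counts in both WT d0 libraries, 12 and 13 in AMPK-KO d0, 0 and 4 in WT d8 and 7 and 3 in AMPK-KO d8, and it was not called (adjusted p = 0.101 at d0 and 0.620 at d8). Shared 100-base stretches made up 4.01% of *Zfp936* and 1.29% of *Gm17067*, and none of *Zfp977*. The closest starts were those of *Gm7211*, 11.4 kb upstream of *Gm2381* with at most 1 count, *Vmn2r62*, 73.7 kb downstream with at most 3, *Gm21028*, 0.353 kb upstream of *Gm44997* with 0 in each WT library, 3, 5, 5 and 7 in the AMPK-KO libraries and too few to test, and *Gm44523*, 68.9 kb downstream with at most 2.

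*Sh2d1b2*, the paralog that starts 44.6 kb upstream of *Sh2d1b1*, had 0 and 1 counts in WT d0, 10 and 31 in AMPK-KO d0, 0 and 0 in WT d8, and 12 and 12 in AMPK-KO d8. It was at least 6.42-fold higher at d0 and at least 3.50-fold at d8, with edgeR adjusted p of 0.0771 and 0.0719. The d0 limit rested mainly on AMPK-KO d0 replicate 2, at 1.45 CPM against 0.523 in replicate 1. DESeq2 called *Sh2d1b2* at d8 (adjusted p = 0.0386), and edgeR with no filter on low counts at both days (0.00141 and 0.00184). Its counts were 2.36% to 4.86% of those of *Sh2d1b1* in each of the 12 AMPK-null libraries (median 2.96%), and 7.00% of its 100-base stretches also occur in *Sh2d1b1*. Whether its reads came from *Sh2d1b1* was not tested. The other tested neighbours of *Sh2d1b1*, at 61.9 kb or more, had log2 fold changes of -1.56 (*Olfml2b*) to 0.96 (*Ddr2*) at d0, and the closest starts, *Gm6345* at 21.6 kb upstream and *Gm7694* at 29.0 kb downstream, had at most 9 and 6 counts. Around *Glra3* the closest starts, *Adam29* and *Gm7351*, had 0 counts throughout.

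**Figure D3:**
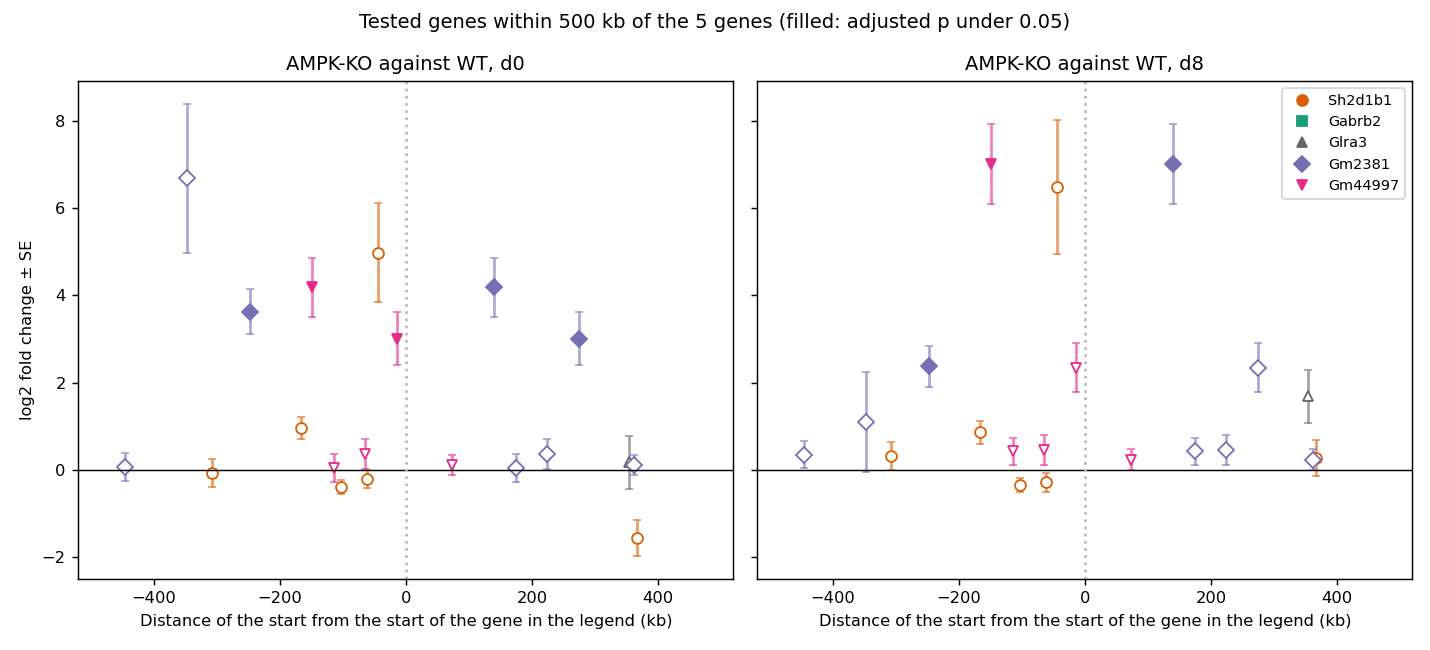
Fitted log2 fold changes (AMPK-KO against WT, SE bars) of the tested genes within 500 kb, by distance in kb from the start of the member whose colour they carry, negative for upstream; filled points had an adjusted p under 0.05. No point is drawn for *Gabrb2*, genes near both *Gm2381* and *Gm44997* appear for each, and the filled points, such as *Zfp936* at 3.62 and 2.37, are interspersed with open points, most of them near 0 and some as high with wider bars, such as *Sh2d1b2* at 4.97 and 6.47.

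**Figure D4:**
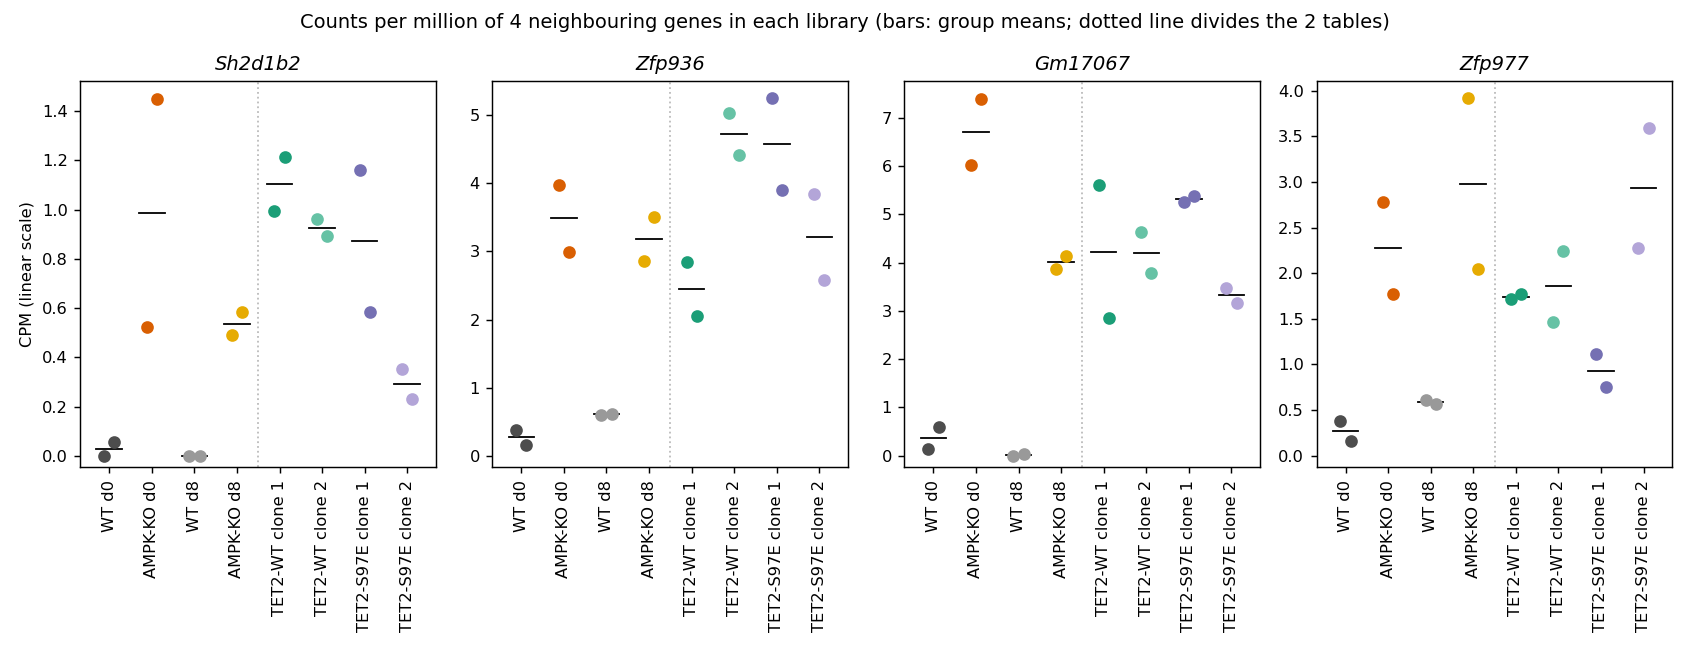
CPM (linear axis, a separate scale for each gene) of 4 neighbouring genes in every library, with points for libraries and bars for group means; the dotted line divides the 2 tables. The AMPK-KO libraries lie above the WT libraries of the same day for each gene, as did those of 23.7% of all genes tested at d0 and 30.0% at d8. The 4 genes were named because they were called or after their values were seen, so their separation is a description. For *Zfp936* the highest WT count was 13 and the lowest AMPK-KO count 64.

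Likeness of pattern was measured as the mean absolute difference of log2(CPM + 0.5) over the 8 libraries of a table, after centring each gene on its own mean, among genes within 4-fold of the member's mean CPM. In the first table, *Plagl1* at 0.792 and *Gm13230* at 0.831 were closest to *Sh2d1b1* of the genes considered, against a median of 2.49 over 6302 candidates. *Gm2381* was also closest to *Gm13230*, a pseudogene on another chromosome, at 0.308, and to its neighbour *Gm17067* at 0.452, against a median of 1.95. *Gabrb2* was closest to *Kank4os* (0.445) and *Adam23* (0.485), *Glra3* to *Gm17094* (0.149) and *Nkx2-3* (0.163), and *Gm44997* to *Il17re* (0.149) and *Map3k13* (0.158). In the second table the closest genes were *Gm12655* and *Clmn* for *Sh2d1b1*, *Akap12* and *Cacnb2* for *Gabrb2*, *Cd93* and *Mcam* for *Glra3*, *Pik3c2b* and *Stradb* for *Gm2381*, and *Rxfp1* and *Gnat2* for *Gm44997*, at 0.156 to 0.254. No gene was named for a member in both tables.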

How the data were processed

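The authors trimmed paired reads of total RNA with Trim Galore 0.4.5, aligned them to GRCm38 with STAR 2.5.3a and counted them per gene with featureCounts 1.5.3 on GENCODE M12. The deposited values are raw gene counts, 1 table per experiment, used here without further rounding. Names and coordinates came from GENCODE M21 on GRCm38, which held 49326 of the 49585 identifiers. Counts were fitted in R 4.3.3 with edgeR 4.0.16 (TMM, filterByExpr, glmQLFit, glmQLFTest) on the whole of each table, with Benjamini-Hochberg adjustment and a threshold of 0.05. The first table entered 1 model of 4 groups, and the second a model of genotype, or of 4 clones for clone contrasts. All 5 members passed the filter in both tables. The floor was 3 counts per library, and floors cover counting error only. Replicates differed beyond sampling noise. In a test on simulated data, a log2 change of 2 was given to 200 genes. For AMPK-KO d8 against d0, 62.0% of them were called over 14329 genes, with 9 false calls. For TET2-S97E against TET2-WT, 87.0% were called over 13433 genes, with 13 false calls. Libraries were simulated independently with no clone effect, and the 200 genes came from all levels. These shares therefore may not hold for genotypes of 2 clones or for genes with low counts. DESeq2 1.42.0 and limma 3.58.1 served as alternatives. Before counting, 2 genes that are not reported here were left out of the lists, the neighbours and the search for alike genes, but not of the fits. The members and gene lists were chosen with earlier results of these data known. Named genes were the members, the edited genes, up to 3 called genes per list and comparison with the lowest adjusted p (the most abundant gene where none was called), the closest and the called neighbours, and the 2 most alike genes per member and table. *Glrb*, the absent SLAM receptors, *Slamf9*, the genes given as called by DESeq2 alone, *Sh2d1b2* and the uncalled neighbours were named after their values were seen.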

Additional observations from a re-analysis of the deposited data

How the results depend on the processing

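Of 675 refitted log2 fold changes of named genes under the alternatives, 552 kept their direction and side of the threshold, 83 lost and 22 gained the call, and 18 changed sign. Among members, *Sh2d1b1* between the TET2-S97E clones was called in all 15 alternatives, with adjusted p up to 0.0192. For AMPK-KO d8 against d0, 1 member was called with no filter on low counts and 0 otherwise. For TET2-S97E against TET2-WT, 2 were called by the DESeq2 Wald test, 2 with no filter and 2 without TET2-S97E clone 2. Without TET2-S97E clone 1 the 1 called was *Sh2d1b1*, and *Gabrb2* had an adjusted p of 0.0518. For that comparison 0 were called with counts summed per clone, a fit that called 0 of all 15126 genes. The number was also 0 with limma-voom and clone as a random effect, without TET2-WT clone 1 or without TET2-WT clone 2. It was 0 to 1 with single libraries left out. Between TET2-S97E clones 2 were called by DESeq2, with no filter and with a replicate block, and 1 to 2 with single libraries left out. Between TET2-WT clones the count was 0 in each alternative. Genes of the 4 receptor, synapse and SLAM lists called in AMPK-KO against WT at d0 numbered 1, and 8 by DESeq2, 13 with no filter, 3 with a replicate block and 0 to 2 with single libraries left out. At d8 they numbered 2, and 9 by DESeq2, 11 with no filter, 8 with a replicate block, 4 with only the libraries of that day and 0 to 3 with single libraries left out. Neighbours called at d0 numbered 3, and 5 by DESeq2, 7 with no filter and 0 to 3 with single libraries left out. At d8 they numbered 2, and 5 by DESeq2, 5 with no filter and 0 to 2 with single libraries left out. DESeq2, the fit with no filter and the replicate block also called more of all genes. With no filter, 2026 of 25084 genes were called between AMPK-KO and WT on d0 and 2503 on d8. With a replicate block the numbers were 740 of 14329 and 1144. Where a left-out library leaves 1 in its group, that library is taken to vary like the other groups. The changes of sign concerned log2 fold changes that missed the threshold. *Glra3* in AMPK-KO d8 against d0 was -0.071 with a replicate block and -0.79 to 0.54 with single libraries left out. *Gm2381* in TET2-S97E against TET2-WT was -0.0027 without TET2-WT clone 1, -0.24 without TET2-S97E clone 1 and -0.11 to 0.51 with single libraries left out. *Gm44997* in that comparison was -0.041 without TET2-WT clone 2, -0.99 without TET2-S97E clone 2 and -0.22 to 0.57 with single libraries left out. Between TET2-WT clones, leaving out single libraries gave -0.034 to 0.10 for *Sh2d1b1*, -0.50 to 0.34 for *Gabrb2*, -0.92 to 0.91 for *Gm2381* and -1.06 to 0.23 for *Gm44997*, and *Glrb* in AMPK-KO against WT at d0 ran from -0.26 to 0.87. The causes were not tested. Replicate numbers are shared by the groups but not said to mark a batch. Deviations of same-numbered libraries correlated at 0.119 to 0.324 among the AMPK-KO and WT groups and at -0.021 to 0.506 among the TET2 groups, and the replicate block changed no member call beyond that of *Gabrb2* between the TET2-S97E clones (adjusted p = 0.0126). With it 4 neighbours were called at d0 and 3 at d8, where *Zfp977* gained the call (adjusted p = 0.0333). Groups of 2 libraries, counts under 65 per library for *Glra3* and *Gm44997*, and unstated strand and multi-mapping settings limit these values.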
